A study of Mus musculus with 2 samples.

Results

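The genes described here are 9 genes of MHC class I antigen presentation in mouse liver: H2-K1, H2-D1, H2-T23, B2m, Tap1, Tap2, Tapbp, Erap1 and Nlrc5. They were chosen by name, and their rows were found through the GRCm38 gene annotation among 52636 Ensembl genes. All 9 reached 1 CPM, a read count scaled to the library total, in both libraries, and 14062 genes reached it in at least 1 and are called measured. Liver messenger RNA was compared between wild-type (WT) C57BL/6 mice and C57BL/6 mice of the genotype GBP5-/- (KO), all 9 weeks old. Gbp5 encodes an interferon-inducible guanylate-binding protein. Mice of both genotypes had received D-galactosamine (GalN, 800 µg per g body weight) with bacterial lipopolysaccharide (LPS, 100 ng per g) and were examined at 6 h. Galactosamine sensitises hepatocytes to endotoxin. RNA of 4 livers was pooled per genotype and sequenced as 1 library, so no spread between animals is known. Untreated livers were not analysed here, and the way the GBP5-/- allele was made is unknown from the labels. Every difference below therefore has no replicate check and no p-value. Intervals are exact 95% counting intervals that compare the 2 libraries and not the genotypes.

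Class I molecules show fragments of a cell's own proteins to CD8 T cells and are inspected by natural killer cells. The proteasome cuts proteins to peptides, the transporter TAP carries these into the endoplasmic reticulum, aminopeptidases trim them, and tapasin holds an empty heavy chain beside TAP until a peptide fits. The heavy chain reaches the surface only with beta-2-microglobulin, the light chain. NLRC5 is the transactivator of class I genes and acts on a conserved promoter module, and interferons raise the whole pathway. In liver, hepatocytes carry little class I at rest, and Kupffer cells and sinusoidal endothelium carry more.

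The classical heavy chains H2-K1 and H2-D1 share much of their sequence, which bears on how reads were divided between them. Over 1074 aligned coding bases of the annotated transcripts 91.99% were identical, and H2-K1 and H2-T23 were identical at 83.74% of 1058. The longest coding runs that pairs of them share were read from the GENCODE transcripts of chromosome 17 and lie in the part that encodes the membrane-proximal immunoglobulin-like domain. A read that falls inside such a run fits more than 1 gene.
H2-K1 and H2-D1, 91 bases: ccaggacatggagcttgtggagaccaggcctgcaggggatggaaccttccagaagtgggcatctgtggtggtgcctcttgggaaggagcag
H2-D1 and H2-T23, 145 bases: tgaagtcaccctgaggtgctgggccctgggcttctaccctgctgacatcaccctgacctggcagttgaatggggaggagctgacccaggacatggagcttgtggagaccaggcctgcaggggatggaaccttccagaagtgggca
Of all 50-base words in its protein-coding transcripts, H2-K1 shared 6.87% with other genes, H2-D1 13.9% and H2-T23 29.8%. With 100-base words the shares were 0%, 4.09% and 7.28%. Nothing in the labels states the read length or the handling of reads that fit several genes. The division of reads among heavy chains is thus less certain than their sum, and least certain for H2-T23.

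Promoter windows were shown for the heavy chains and the light chain because these partners differed in their ratio between the libraries. RefSeq (GRCm38.p6) windows of 300 bases were at hand for 7 of the 9 genes, all but Tap2 and Nlrc5. They run from 250 before to 50 after the gene start of RefSeq, which can differ from the GENCODE start. For H2-D1, Tapbp and Erap1 the whole window lies inside the gene as GENCODE annotates it, and for H2-T23 most of the window does. Capitals mark matches on either strand to 4 motifs, which were AANNGAAA, the core of sites for interferon regulatory factors, TGACG, the core of the X2 box, CCAAT, the Y box, and the NF-kB consensus. The X and Y boxes belong to the module on which NLRC5 acts. Coordinates are chr17:34000298-34000597 on the minus strand for H2-K1, chr17:35262844-35263143 on the plus strand for H2-D1, chr17:36032652-36032951 on the minus strand for H2-T23 and chr2:122147437-122147736 on the plus strand for B2m.
H2-K1: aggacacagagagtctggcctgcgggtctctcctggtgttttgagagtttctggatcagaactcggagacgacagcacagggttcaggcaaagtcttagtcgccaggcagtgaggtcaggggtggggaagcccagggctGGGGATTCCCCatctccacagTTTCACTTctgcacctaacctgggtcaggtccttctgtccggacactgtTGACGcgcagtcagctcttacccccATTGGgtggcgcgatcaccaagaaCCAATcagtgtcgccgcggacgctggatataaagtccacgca
H2-D1: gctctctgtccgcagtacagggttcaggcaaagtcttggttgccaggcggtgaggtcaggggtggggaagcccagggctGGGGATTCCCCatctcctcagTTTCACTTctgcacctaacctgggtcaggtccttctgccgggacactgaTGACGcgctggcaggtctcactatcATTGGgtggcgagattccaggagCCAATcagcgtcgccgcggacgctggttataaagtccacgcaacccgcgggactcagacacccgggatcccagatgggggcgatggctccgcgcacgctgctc
H2-T23: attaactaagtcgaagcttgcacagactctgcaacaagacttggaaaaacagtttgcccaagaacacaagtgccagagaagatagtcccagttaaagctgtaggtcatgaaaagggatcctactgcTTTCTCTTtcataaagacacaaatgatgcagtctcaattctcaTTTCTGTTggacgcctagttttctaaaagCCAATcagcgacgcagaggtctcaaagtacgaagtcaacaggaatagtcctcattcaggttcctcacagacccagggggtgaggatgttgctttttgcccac
B2m: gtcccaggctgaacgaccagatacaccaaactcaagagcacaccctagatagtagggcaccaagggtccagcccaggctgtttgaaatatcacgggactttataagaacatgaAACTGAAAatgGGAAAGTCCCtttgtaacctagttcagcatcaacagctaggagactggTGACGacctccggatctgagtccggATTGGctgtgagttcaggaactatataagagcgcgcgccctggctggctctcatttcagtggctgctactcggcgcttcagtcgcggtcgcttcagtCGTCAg
The H2-K1 and H2-D1 windows had all 4 motifs in the same order. The interferon regulatory factor core was at position 161 of the H2-K1 window and 101 of the H2-D1 window, and such positions depend on the start used. The NF-kB consensus matched there as 4 overlapping matches of a single short stretch, on both strands. In the alignment of these windows 214 of 239 aligned bases were identical, and 122 further bases stood opposite gaps. B2m also had all 4 motifs. Whether the motifs bear on the differences between the libraries was not tested. H2-T23 had the interferon core and the Y box, Tap1 the X2 core and the Y box, Tapbp the Y box alone and Erap1 the interferon core alone. In the Tap1 window the Y box, at position 29, stood far before the X2 core, at 165. In the H2-K1 window a Y box at 235 followed the X2 core at 210. Such short motifs were common. The interferon core matched in 23.9% of 32851 windows of that length, TGACG in 20.8%, CCAAT in 37.4% and the NF-kB consensus in 8.46%. A match describes letters and not a bound factor.

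The libraries held 19864848 reads in WT and 15750875 in KO, and 3 reads corresponded to 0.151 and 0.190 CPM. Gbp5 itself had 3211 and 873 reads, 2.92-fold lower in KO, in the direction of the labels. Reads of Gbp5 thus remained in KO, at 55.4 CPM beside 162 in WT, and gene counts do not show where in the gene they fell. Hepatocyte markers (8 of 8 measured) summed to 66885 CPM in WT and 101803 in KO, of which Alb made up most, and to 28501 and 32553 CPM without Alb. The library difference went with the GC content of genes. With genes sorted into 10 bins of GC content, the median log2 ratio of KO to WT was 0.28 in the lowest bin and -0.86 in the highest. For that reason each gene is given both as a plain CPM ratio and with a correction, which subtracts the median of genes of like GC content and length. True differences that follow these properties are lost with it.

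Class I presentation genes were mostly lower in the KO library. Of the 9 genes 7 were lower, all by at least 1.58-fold, where 54.1% of all measured genes were lower, and B2m and Erap1 were slightly higher. Counting by size with no test, 4 reached a 2-fold lower level, namely Tap2, Tap1, Nlrc5 and Tapbp, against 12.4% of all measured genes, and none was 2-fold higher, against 4.63%. At 1.5-fold 7 were lower, against 24.9%, and none was higher, against 12.5%. The median log2 ratio was -0.99, beside -0.065 for all measured genes. With the correction 8 were below 0, against 49.5% of all genes, and none was 2-fold lower (6.78% of all genes) or 2-fold higher (5.17%). At 1.5-fold 4 were lower (16.8% of all genes), namely Tap2, H2-D1, Nlrc5 and H2-K1, and none was higher (13%). The corrected median was -0.52, beside 0.0039 for all measured genes. In these pools fewer cells of a type and less RNA per cell cannot be told apart.

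**Figure D1:**
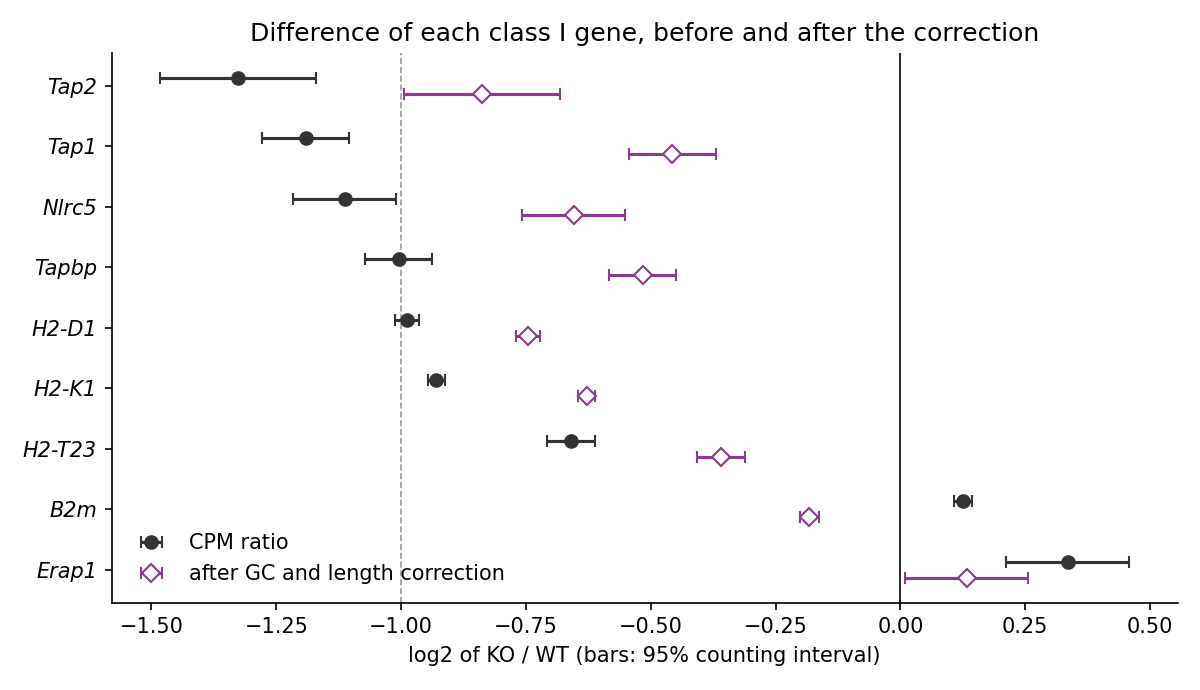
Log2 ratio of KO to WT for each class I presentation gene, as CPM ratio (filled circles) and after the GC and length correction (open diamonds). Bars are 95% counting intervals, and the dashed line marks a 2-fold lower level. Tap2, at -1.33, lay lowest and Erap1, at 0.33, highest, and the corrected values lay nearer to 0 except that of B2m, which moved from 0.13 to -0.18.

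The heavy chains came first in abundance after B2m. H2-K1 (ENSMUSG00000061232, GRCm38 chromosome 17, 33996017 to 34000347, minus strand), which encodes the classical heavy chain of the K locus, had 88448 WT and 36821 KO reads, or 4452 and 2338 CPM. Its KO level was 1.90-fold lower (1.88 to 1.93), and 1.55-fold lower after the correction. H2-D1 (ENSMUSG00000073411, chromosome 17, 35262730 to 35267499, plus strand), the classical heavy chain of the D locus, had 46145 and 18445 reads, or 2323 and 1171 CPM. It was 1.98-fold lower (1.95 to 2.02), and 1.68-fold lower after the correction. These genes lay close together on both scales, and neither reached 2-fold. Their summed reads, which do not depend on how reads were split between them, were 134593 and 55266, 1.93-fold lower in KO (1.91 to 1.95). The sum would still change with reads dropped or given to other genes, and that handling is unknown. H2-T23 (ENSMUSG00000067212, chromosome 17, 36029773 to 36032855, minus strand) encodes Qa-1, a non-classical heavy chain that shows leader peptides of other class I chains to an inhibitory receptor of natural killer cells. It had 10393 and 5217 reads, or 523 and 331 CPM. It was 1.58-fold lower (1.53 to 1.63) and 1.28-fold lower after the correction, the smallest difference of the 7 lower genes on both scales. The intervals of H2-T23 and of the classical chains did not overlap, but H2-T23 also had the largest share of sequence in common with other genes. The antisense gene A930015D03Rik overlaps H2-T23 outside exons and had no reads in either library.

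The light chain went the other way. B2m (ENSMUSG00000060802, chromosome 2, 122147686 to 122153083, plus strand) had 50403 WT and 43603 KO reads, or 2537 and 2768 CPM. Its ratio was 1.09 (1.08 to 1.11), and after the correction it was 1.13-fold lower, so its direction depends on the correction. No 50-base word of its transcripts was shared with another gene, and Patl2, which overlaps it outside exons, had 2 reads in each library. Per exon length, in FPKM (CPM per kilobase of exon), B2m stood at 2950 in WT and 3219 in KO. The summed FPKM of H2-K1, H2-D1 and H2-T23 was smaller, and B2m was 1.14 times that sum in WT and 2.36 times in KO. B2m has a GC content of 41.2%, whereas that of the heavy chains lay between 54.3% and 55.9%, so this shift runs along the GC difference between the libraries. How much of the shift goes with GC content alone was not tested.

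Both subunits of the peptide transporter were lower by more than 2-fold. Tap1 (ENSMUSG00000037321, chromosome 17, 34187553 to 34197225, plus strand) had 4133 WT and 1435 KO reads, or 208 and 91.1 CPM, 2.28-fold lower (2.15 to 2.43). Tap2 (ENSMUSG00000024339, chromosome 17, 34203527 to 34216321, plus strand) had 1407 and 445 reads, or 70.8 and 28.3 CPM, 2.51-fold lower (2.25 to 2.80). These were the lowest ratios of the 9, and their intervals overlapped each other and that of Nlrc5. The subunits work as a pair, and per exon length Tap1 was 2.03 times Tap2 in WT and 2.23 times in KO. After the correction Tap2 was 1.79-fold lower and Tap1 1.37-fold lower. The annotation of Tap1 overlaps the exons of Psmb9 on the other strand by 212 bases, 3.87% of its exon length. Psmb9 had 1224 and 575 reads. That of Tap2 overlaps Gm15821 by 533 bases, and Gm15821 had 7 and 0 reads, and Gm20496 by 165 bases, with no reads in either library. The strand setting of the counting is unknown, so reads in these stretches cannot be assigned.

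The loading chaperone, the trimming peptidase and the transactivator differed among themselves. Tapbp (ENSMUSG00000024308, chromosome 17, 33915899 to 33929292, plus strand) encodes tapasin. It had 6433 WT and 2542 KO reads, or 324 and 161 CPM, 2.01-fold lower (1.92 to 2.10), and 1.43-fold lower after the correction. Its interval spans 2-fold, and its place among the genes past that fold is marginal. Its exons overlap those of Zbtb22, with 269 and 132 reads, by 149 bases and those of the antisense gene Gm19412 by 904 bases, and the latter had no reads in either library. Erap1 (ENSMUSG00000021583, chromosome 13, 74639568 to 74693201, plus strand), which encodes the aminopeptidase that trims peptides to fit class I, had 1081 reads in each library. That is 54.4 CPM for WT and 68.6 CPM for KO. The ratio was 1.26 (1.16 to 1.37), or a log2 ratio of 0.33 before and 0.13 after the correction. Cast overlaps 11.5% of its exon length on the other strand and had a ratio of 1.27 (1.12 to 1.43), so the reads of these genes are partly uncertain. Nlrc5 (ENSMUSG00000074151, chromosome 8, 94434356 to 94527272, plus strand) had 2839 WT and 1041 KO reads, or 143 and 66.1 CPM. The KO level was 2.16-fold lower (2.01 to 2.32), or 1.57-fold with the correction. It shared no 50-base word with another gene. Its exons overlap those of 9330175E14Rik by 78 bases, and that gene had 107 and 51 reads, while Mir7072, which overlaps it outside exons, had 2 and 0.

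**Figure D2:**
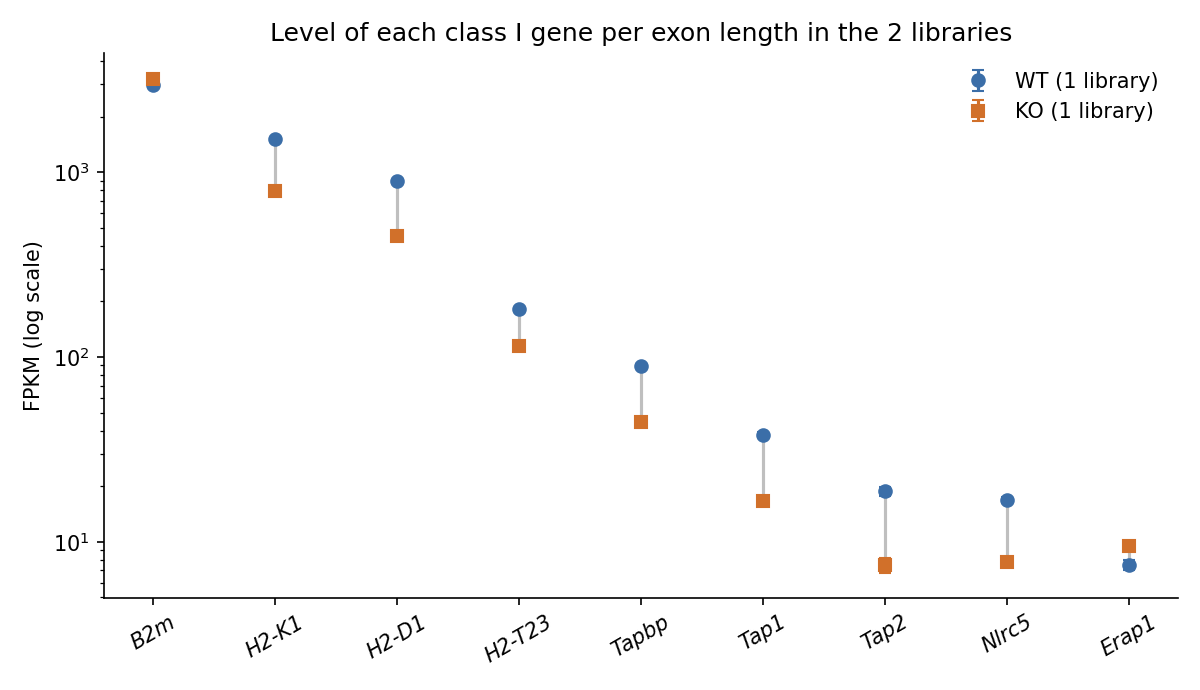
FPKM of each class I presentation gene (log axis) in the WT library (circles) and the KO library (squares), ordered by the WT level. Bars are 95% counting intervals, mostly smaller than the symbols. B2m lies highest in both libraries, at 2950 and 3219, and the other genes except Erap1 have the KO symbol below the WT symbol.

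The order of levels per exon length was nearly the same in both libraries. In WT it ran from B2m at 2950 FPKM over H2-K1 at 1515, H2-D1 at 901, H2-T23 at 181, Tapbp at 89.3, Tap1 at 38.0, Tap2 at 18.7 and Nlrc5 at 16.8 to Erap1 at 7.47. The counting intervals of Tap2 (17.8 to 19.7) and Nlrc5 (16.2 to 17.5) came close but did not overlap. In KO the levels were 3219 for B2m, 796 for H2-K1, 454 for H2-D1, 115 for H2-T23, 44.5 for Tapbp and 16.6 for Tap1, in the same order. The last places changed, with Erap1 at 9.43 FPKM, Nlrc5 at 7.78 and Tap2 at 7.47, of which the latter pair had overlapping intervals. The order of genes was the same in each library when the longest transcript was used as length.

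Chromosome 17 carries 6 of the 9 genes, in the mouse MHC, and all 6 were lower in KO. Nlrc5, on chromosome 8, was lower as well. The lower and the higher genes were also apart in the GC content of their longest transcript. It was 52.6% to 57.1% in the 7 lower genes and 41.2% to 41.5% in B2m and Erap1. Against genes of like GC content, 6 of the 9 lay below the lower quartile of log2 ratios of their GC bin and 3 lay between its quartiles. Nlrc5 was farthest below, at -1.11 beside a quartile of -0.63, and Tap2 was at -1.33 beside -0.99. Tap1 was at -1.19 beside -0.99 and H2-K1 at -0.93 beside -0.75. H2-D1 and Tapbp lay almost on their quartile of -0.99. H2-T23, B2m and Erap1 lay between the quartiles.

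**Figure D3:**
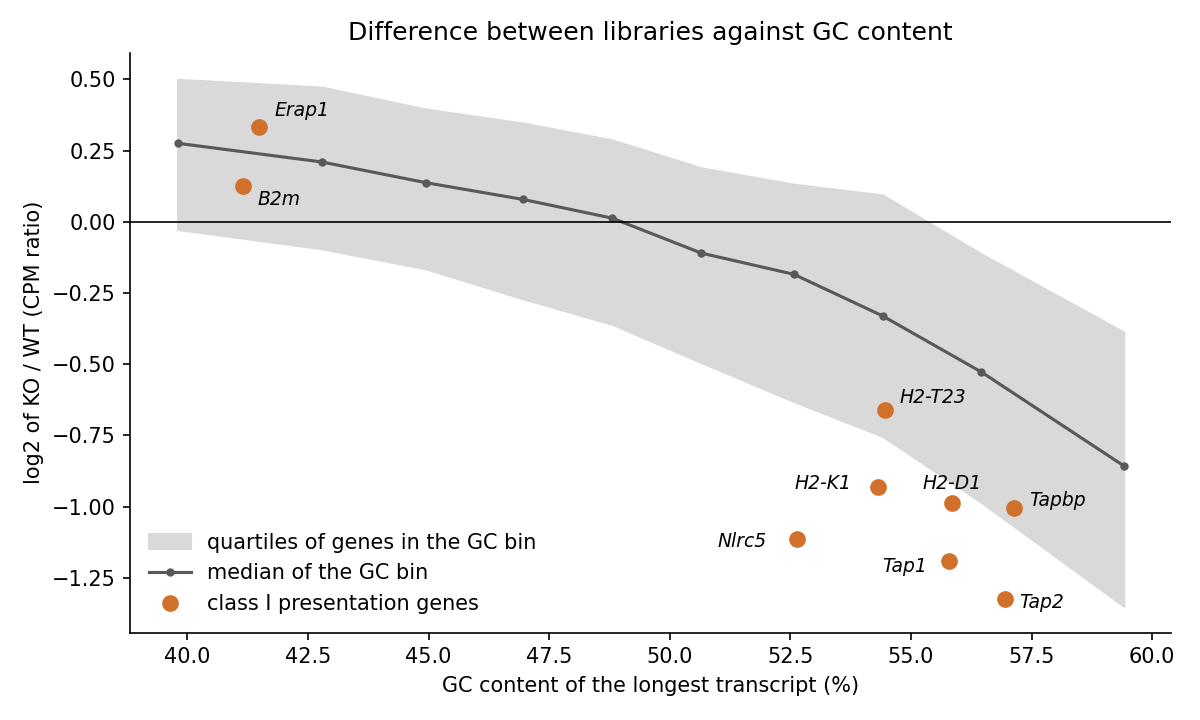
Log2 ratio of KO to WT against the GC content of the longest transcript. The line joins the medians of 10 GC bins over 11291 genes with 100 reads or more, the grey band spans the quartiles of each bin, and the orange points are the class I presentation genes. B2m and Erap1, at 41.2% and 41.5% GC, lie above 0 inside the band. Nlrc5, Tap1, Tap2 and H2-K1 lie below the band, and H2-D1 and Tapbp lie near its lower edge.

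The remaining class I heavy chains were mostly lower as well. Of 18 listed, 11 reached 1 CPM, all of them in both libraries, and 10 of these were lower in KO, against 54.1% of all measured genes. At 1.5-fold 5 were lower, against 24.9%, and at 2-fold 2, close to the 12.4% of all genes. After the correction 10 were lower (49.5% of all genes), 5 by 1.5-fold (16.8%) and 3 by 2-fold (6.78%), and 1 was 1.5-fold higher (13%). The median log2 ratio was -0.54 before and -0.50 after the correction. H2-Q10, which encodes a class I protein secreted by hepatocytes, was the most abundant, with 48310 WT and 26312 KO reads. It was lower by a log2 ratio of -0.54. The lowest were H2-Q4, with 3617 and 1174 reads (log2 ratio -1.29, corrected -1.31), and H2-M3, which presents formylated bacterial peptides, with 259 and 99 reads (-1.05, corrected -1.09). H2-T22 was at -0.22. H2-Q2 was at 0.10 on 27 and 23 reads, and its ratio of 1.07 (0.588 to 1.95) was not resolved at this depth. The share of 50-base words in common with other genes differed widely among these chains, from 0.576% in H2-M3 and 7.73% in H2-Q10 to 39.2% in H2-Q4 and 43.9% in H2-T22. H2-Q1, the nearest match of H2-D1, had 167 and 95 reads, and H2-T-ps, that of H2-T23, had 31 and 23. The summed reads of all 21 listed heavy chains were 211228 and 95766, 1.75-fold lower in KO (1.74 to 1.76). This sum and the 11 measured chains include H2-K2 (792 and 476 reads) and H2-T10 (156 and 63). Both are annotated as kinds of pseudogene, and both were lower in KO.

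Steps before and around the transporter differed less. Among all measured genes 54.1% were lower in KO, and 12.4% by 2-fold or more. Genes of the immunoproteasome, whose subunits replace those of the standard proteasome when interferon acts, and of its activator had 5 of 6 genes lower, none by 2-fold, with a median of -0.27 before and -0.16 after the correction. Psmb9 was at -0.76 and Psmb8 at -0.43, Psmb10 at -0.36, Psme1 at -0.075 and the assembly factor gene Pomp at 0.18. Psmb8 and Psmb9 lie beside Tap1 and Tap2 in the MHC, and the corrected values were -0.31 for Psmb8 and -0.45 for Psmb9. The chaperones and quality control factors of the endoplasmic reticulum had 6 of 9 lower, none by 2-fold, with a median of -0.083. Tapbpl, which encodes a peptide editor related to tapasin, was at -0.59, corrected -0.62. Prkcsh was at -0.77, Calr, the calreticulin of the loading complex, at -0.32, Canx at 0.13 and Sec61b at 0.18. Cytosolic and endosomal peptidases had 2 of 7 lower, with a median of 0.085. Thop1, which destroys peptides in the cytosol, was at -1.04 but at 0.11 after the correction, Nrd1 was at -0.062, Tpp2 at 0.37 and Blmh at 0.42.

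**Figure D4:**
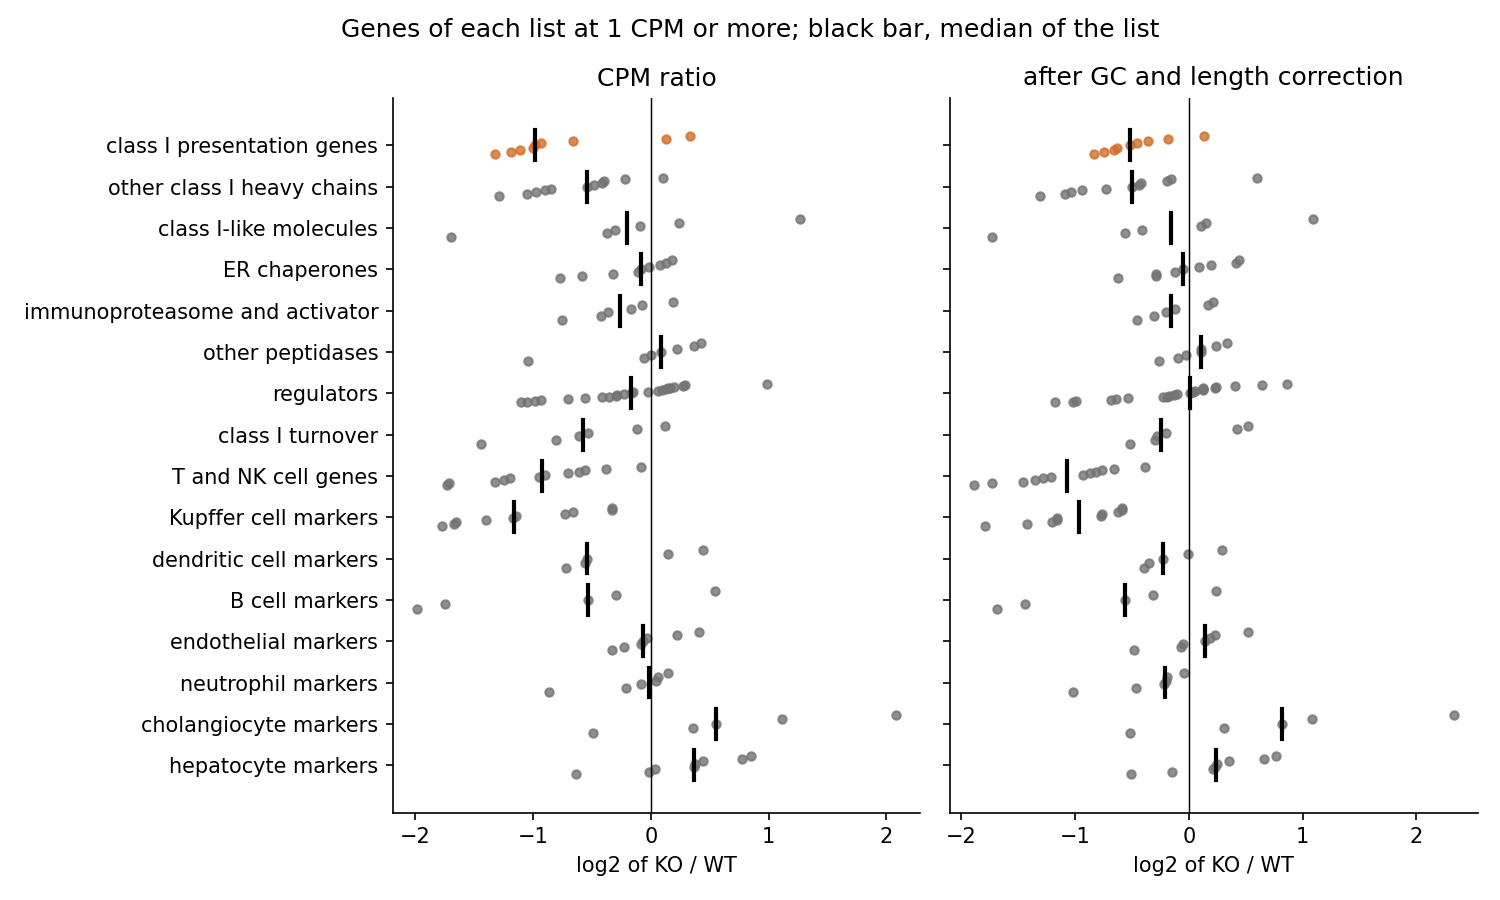
Log2 ratio of KO to WT of each gene at 1 CPM or more, by list, as CPM ratio (left) and after the GC and length correction (right). Points are genes and black bars the medians of lists. The class I presentation genes (orange) have a median of -0.99 on the left and -0.52 on the right, and Kupffer cell markers one of -1.16 and -0.97.

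Regulators of class I genes did not share a direction. Of 23 genes 14 were lower and 9 higher, where 54.1% of all measured genes were lower. The median was -0.17 before and 0.0076 after the correction. Jak2, a kinase of the interferon-gamma receptor, was at -1.05 (corrected -1.18) and the myeloid factor Irf8 at -1.10 (-0.64). Irf1, which drives class I and Nlrc5 after interferon, had 4141 and 4003 reads and a ratio of 1.22 (1.17 to 1.27). Of the subunits of the RFX complex that binds the X box, Rfxap was at -0.98 on 132 and 53 reads, Rfx5 at -0.71 on 142 and 69, and Rfxank at -0.29 on 153 and 99, with a ratio of 0.816 (0.627 to 1.06). Ezh2, a repressor of class I genes in tumours, was at 0.99 on 42 and 66 reads. Ciita, the class II counterpart of Nlrc5, had 109 and 26 reads, a level 3.32-fold lower in KO (2.15 to 5.31), with a corrected log2 ratio of -1.10. Factors of class I turnover at the surface had 5 of 6 lower, with a median of -0.57 that became -0.24 after the correction. The ligase gene March9 had 24 and 7 reads, reached 1 CPM in WT alone and was at -1.44, Sppl3 was at -0.81, Wwp2 at -0.12 and Tmem129 at 0.12.

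Kupffer cell markers and genes of T and natural killer cells were also lower in KO. None of the 7 endothelial markers listed differed by 1.5-fold, where 24.9% of all measured genes were that much lower and 12.5% higher. All 10 Kupffer cell markers were lower, 6 by 2-fold or more, with a summed level of 1479 CPM in WT and 601 in KO and none at 0. Of all measured genes 54.1% were lower in KO, and 12.4% by 2-fold or more. The lowest were Marco at -1.77 and C1qc at -1.67, and the highest Timd4 and Vsig4, both at -0.33. In the list of T and natural killer cell genes all 14 had fewer CPM in KO, with a summed level of 41.2 and 20.3 CPM and none at 0. Without the filter 7 of the 14 were lower by 2-fold or more, against 13.5% of all genes with reads in both libraries. Of the 12 that reached 1 CPM in at least 1 library, 5 were lower by 2-fold or more. Prf1, the perforin of killer cells, had 120 and 29 reads, Klrb1c 21 and 5, Cd8a 78 and 38, Cd3g 56 and 34 and Klrc2 20 and 15. All of these counts are low, and Cd8b1, Cd3e, Klrc2 and Klrb1c reached 1 CPM in WT alone. Klrd1, a chain of the receptor for Qa-1, had 16 and 6 reads and stayed under 1 CPM. Dendritic cell markers summed to 26.7 and 19.6 CPM, with 5 of 7 lower, and B cell markers to 11.9 and 7.49 CPM, with 4 of 5 lower, on few reads. Endothelial markers summed to 497 and 460 CPM, with 5 of 7 lower and a median of -0.064 that was 0.14 after the correction. Procr, which encodes the endothelial receptor for protein C and is not in this list, was at -1.69. Neutrophil markers summed to 290 and 269 CPM, with 3 of 6 lower before and all 6 lower after the correction. The neutrophil median was -0.019 before and -0.21 after it. Hepatocyte markers had 2 of 8 lower and cholangiocyte markers 1 of 5, the latter summing to 142 and 203 CPM. No marker in these lists was at 0 in either library. The part of these cells in the difference of class I genes was not tested.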

How the data were processed

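The submitters' processing notes name TopHat2, HTSeq 0.6.1 and GRCm38; nothing states the annotation release, strand setting, read length or filters. Although labelled FPKM, the values deposited by the authors are whole numbers with unequal library totals and were read as raw read counts. Of 52845 rows, 209 name no annotated gene (0.652% of reads in WT, 0.496% in KO) and were left out of totals. The design was written for ratios of CPM between single libraries and was kept. CPM used all 52636 Ensembl rows. Ratios are without a pseudocount, with Clopper-Pearson intervals conditional on the summed reads; FPKM used the union of exons in GENCODE M21 (52489 rows matched), with exact Poisson intervals. Both cover counting error only, since reads are not independent molecules. The WT library was 1.26 times as deep.

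The correction took medians over 11291 genes with 100 reads or more in 10 GC by 4 length bins. Alternatives were TMM and median-of-ratios scaling, other totals, GC alone, 1 added to CPM or FPKM, and other filters. Genes, lists and the correction were chosen with earlier results of these data known, so no pattern counts as independent support. The genes named were the 9 members, Gbp5, the 2 highest and 2 lowest of lists, set representatives, and genes that overlap or most resemble a member; marker lists other than Kupffer and T cell ones are given as sums. Among the genes chosen by this rule, 1 is left out. The filter was 1 CPM in at least 1 library, so genes could pass through 1 library alone. Nrdc was matched as Nrd1. Steps were tested on simulated counts. Python 3.11.15, numpy 2.4.6, pandas 2.3.3, scipy 1.17.1 and edgeR 4.0.16 (TMM factors alone) in R 4.3.3 were used.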

Additional observations from a re-analysis of the deposited data

How the results depend on the processing

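The 2 corrections for sequence composition changed the picture most. With GC and length the member median went from -0.99 to -0.52, the members at least 2-fold lower from 4 to 0 and those at least 1.5-fold lower from 7 to 4. With GC alone these were -0.48, 0 and 4. B2m changed sign, to -0.18 with GC and length and -0.15 with GC alone. The immunoproteasome list turned to a median of 0.091 with GC alone. Without the 50 most abundant genes in the total the member median was -0.88 and the median of the chaperone list became 0.020. Between 3 and 4 members were 2-fold lower under the other settings. H2-K1, H2-D1, H2-T23, Tap1, Tap2, Tapbp and Nlrc5 were below 0 in all 12 settings and Erap1 above 0 in all 12. This is not a count of independent checks. The changed filters could not alter the ratio of a member, and other scaling or totals shift all genes by a common amount. Adding 1 hardly moves well-counted genes. Among the members only the 2 corrections changed a direction, that of B2m. A common shift can also turn medians near 0, as it did for the chaperone list. Without the 50 most abundant genes the endothelial median went from -0.064 to 0.040 and the neutrophil median from -0.019 to 0.084. Across settings Tap2 was 1.74-fold to 2.51-fold lower, Nlrc5 1.57-fold to 2.16-fold and H2-K1 1.51-fold to 1.90-fold. The share of all genes 2-fold lower ran from 5.03% with 1 added to FPKM to 13.5% without a filter. No paired analysis was possible because each genotype was 1 library and the labels carry no replicate numbers, and no library could be left out. Depth limits genes with few reads, such as Klrd1, March9 and H2-Q2.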

Other observations

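Molecules with the class I fold but other tasks did not move as a group. Of 7 listed, 6 reached 1 CPM, and 4 were lower and 2 higher in KO, where 54.1% of all measured genes were lower. The median log2 ratio was -0.20. Procr, which encodes the endothelial receptor for protein C, had 1901 WT and 466 KO reads, a log2 ratio of -1.69 and of -1.73 after the correction. Cd1d1, which presents lipids to natural killer T cells, had 4625 and 2837 reads, at -0.37 before and -0.56 after the correction. Azgp1, a secreted glycoprotein of hepatocytes, had 22897 and 21432 reads, a ratio of 1.18 (1.16 to 1.20). Mr1, which presents vitamin B metabolites to innate-like T cells, had 34 and 65 reads, a ratio of 2.41 (1.57 to 3.77). Hfe, an iron regulator, was at -0.31 and Fcgrt, the neonatal Fc receptor, at -0.096. The spread of this list, from -1.69 to 1.27, was wider than that of the class I presentation genes.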
